A study of Canis lupus familiaris with 39 samples.

Results

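The genes described here encode the endoplasmic reticulum (ER) secretory machinery, the proteins that bring a growing secretory chain into the ER and fold, cut and glycosylate it there. The list held 44 genes, and a member was measured by every probeset annotated with its symbol and no other. Of the 44 listed genes, 42 had such a probeset, and together they had 91 of the 42860 probesets on the array. PDIA2 and CRELD2 had none. Where a gene had several probesets, the brightest of them on average over the arrays stood for it, a choice that uses no difference between organs.

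Secretory proteins carry a signal peptide that is bound by the signal recognition particle (SRP) and delivered to the Sec61 channel, where the translocon-associated proteins (SSR1 to SSR4) assist entry. The signal peptidase complex removes the peptide, and the oligosaccharyltransferase (OST) attaches N-linked glycans. Chaperones such as BiP (HSPA5) and GRP94 (HSP90B1), the lectins calnexin (CANX) and calreticulin (CALR), and the protein disulfide isomerases then fold the chain. When unfolded protein accumulates, the unfolded protein response raises the capacity of the system through the transcription factors XBP1, ATF6 and ATF4. Pancreatic acinar cells, hepatocytes and plasma cells are the classical professional secretory cells: the first release digestive enzymes, the second plasma proteins, and the third antibodies.

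The study profiled pathologically normal organs of 4 dogs, both beagles and mixed-breed animals of both sexes and of different ages, on Affymetrix Canine Version 2.0 arrays. There were 39 arrays: 4 each of brain (cerebrum), heart, jejunum, kidney, liver, lung, lymph node, skeletal muscle and spleen, and 3 of pancreas. No animal was treated, and each array measured the RNA of a whole piece of organ. Methods of the study state that every dog gave all 10 organs, but the labels do not say which arrays came from the same dog, so arrays were treated as independent in all tests. All values are log2 RMA values, on which a difference of 1 is a 2-fold change, and the median of an array lay between 3.95 and 4.11. A value near 4 was therefore that of the median probeset.

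The organ labels were checked against marker genes. The median of 12 measured acinar markers (of 14 listed) was 13.35 to 13.53 on the pancreas arrays, and the median of 10 measured hepatocyte markers (of 11) was 12.63 to 12.97 on the liver arrays. The authors had left out a pancreas sample partly for its lack of pancreatic genes. The acinar list includes 1 of those they named, CPB1, so the pancreas check was partly set by that choice. JCHAIN, the joining chain of secreted antibodies, was 11.14 to 12.47 in lymph node, 10.96 to 12.50 in spleen and 10.15 to 12.01 in jejunum, against 5.75 to 6.98 in pancreas and 5.81 to 6.64 in liver. These 3 organs are called plasma-cell-bearing below, although lung also had JCHAIN at 8.46 to 10.98 and a single kidney array reached 9.31. The median of the 6 measured plasma cell markers (of 10) was low even there, 4.65 to 5.83 in lymph node, 4.28 to 4.75 in spleen and 4.28 to 4.91 in jejunum. CD38 and PRDM1 were also above liver on every array of the 3 organs. SDC1, at 3.61 to 3.92 in them, was below liver, at 3.95 to 4.03. POU2AF1 overlapped with liver in jejunum and spleen, and TNFRSF13B in jejunum. CD38 in lung, 7.25 to 8.01, was above jejunum, 5.07 to 6.78. Jejunum had enterocyte and goblet cell medians of 8.91 to 10.47 and 8.72 to 11.77. The name therefore rests on JCHAIN. T cell markers (8 of 8 measured) had a median of 3.78 to 4.06 on the pancreas arrays, at the level of the median probeset.

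Some arrays carried markers of another organ, taken here as a marker median more than 1 above that of the other arrays outside it. The acinar median, 3.83 over the arrays outside pancreas, was 5.34 on brain 3, 5.05 on lymph node 4, and 6.53, 7.06 and 8.53 on skeletal muscle 1, 3 and 4. The hepatocyte median, 3.92 over the arrays outside liver, was 5.04 on heart 1, 7.81 on heart 2, 5.31 on kidney 2, 7.50 on lung 1 and 7.97 on lung 3. The cause of these marker values and their part in the results were not tested. The counts of members called in each contrast are also given without those arrays.

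Pancreas had the highest tissue mean for 31 of the 42 measured genes, lymph node for 3, brain, jejunum and kidney for 2 each, and liver and skeletal muscle for 1 each. The lowest mean was in skeletal muscle for 19 genes and in brain and in heart for 9 genes each. When each gene was centred on the mean of its 10 tissue means, the average over the 42 genes was 1.24, 1.37 and 1.28 on the pancreas arrays, and no array of another organ exceeded 0.66. The next organs were lymph node with 0.38 ± 0.29 (SD, n = 4), jejunum with 0.34 ± 0.23, spleen with 0.23 ± 0.17 and liver with 0.17 ± 0.12, whose ranges overlapped. Lung averaged 0.07 ± 0.14 and kidney -0.09 ± 0.12. Brain, at -0.67 ± 0.07, heart, at -0.75 ± 0.01, and skeletal muscle, at -1.0 ± 0.08, formed the bottom of the order. In such bulk samples fewer cells of a type and less RNA per cell cannot be told apart.

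**Figure D1:**
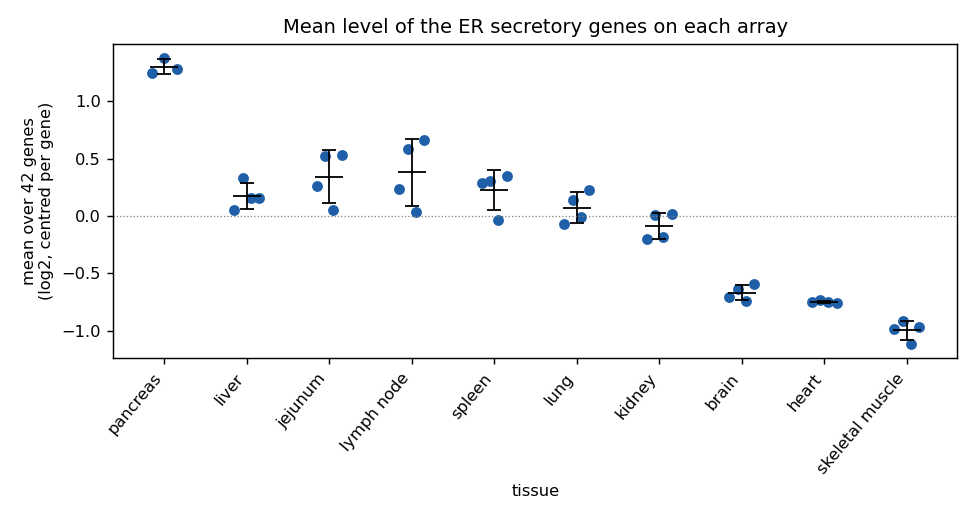
Mean of the 42 measured ER secretory genes on each of the 39 arrays (points), as log2 values centred on each gene's mean of tissue means, by organ; bars give the mean and SD of each organ. The 3 pancreas arrays sit between 1.24 and 1.37, and every other array is at or below 0.66.

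**Figure D2:**
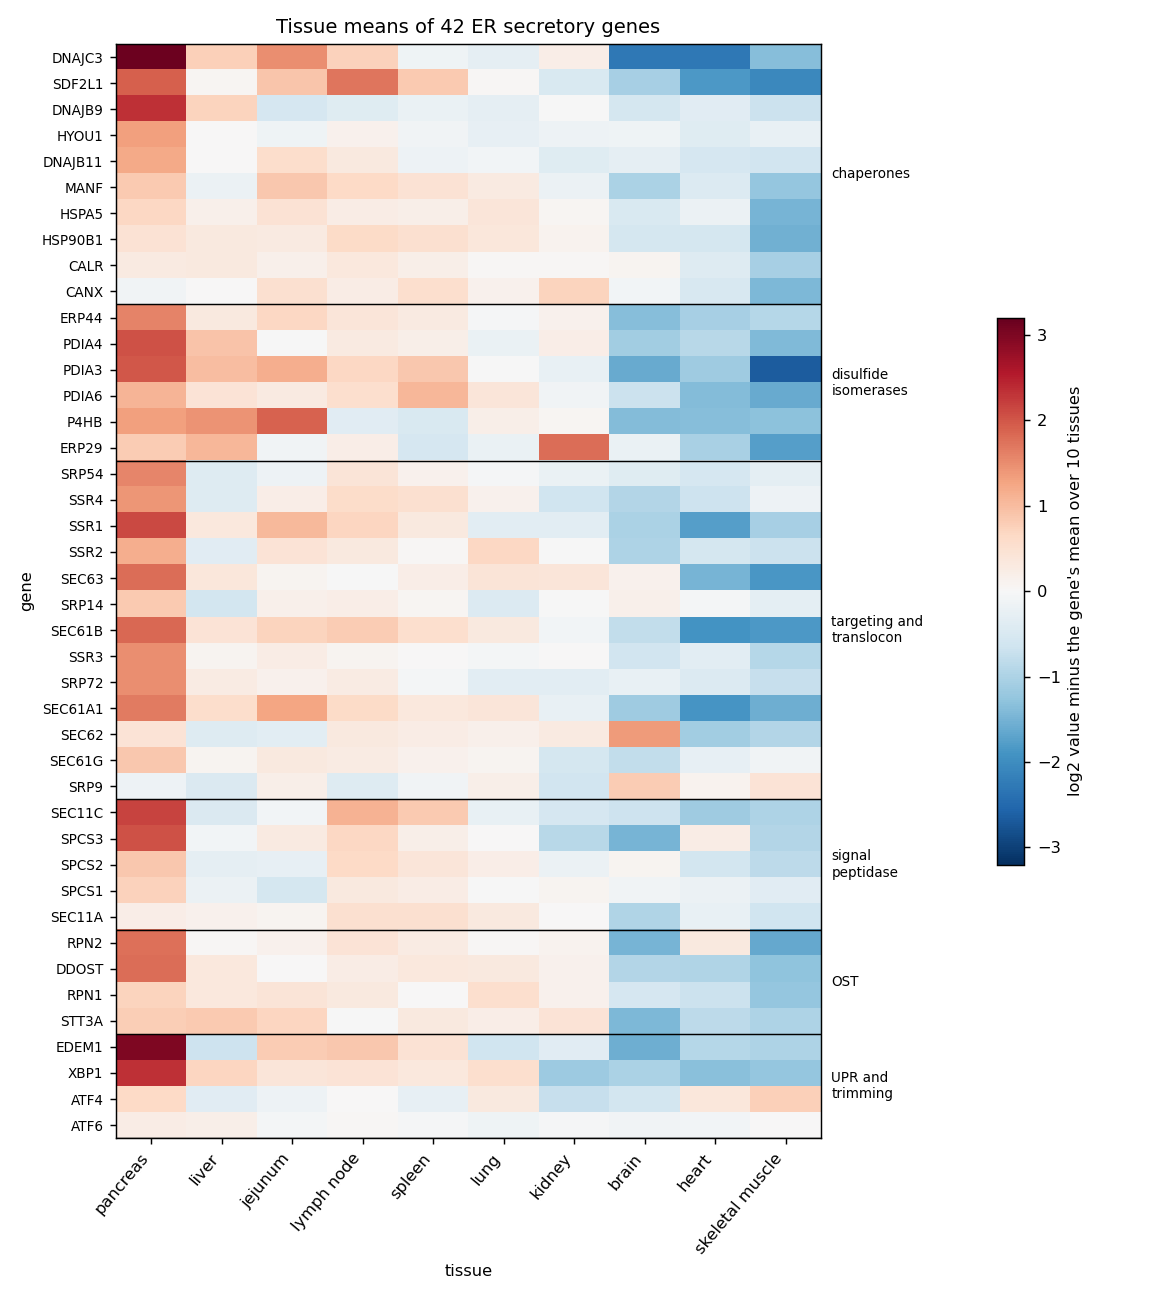
Tissue means of the 42 genes (rows, grouped by role and ordered by the pancreas minus liver difference) in 10 organs (columns), as log2 value minus the gene's mean over the organs; red is above and blue below that mean. OST is oligosaccharyltransferase and UPR is the unfolded protein response. The pancreas column is red in nearly every row, P4HB peaks in jejunum, ERP29 in kidney and SEC62 in brain.

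Across the 10 organs, 41 of the 42 genes differed by limma's moderated F test at a false discovery rate of 0.001, and 54.6% of all probesets did so. The count was 40 without the 5 arrays with acinar markers and 40 without the 5 with hepatocyte markers. The exception was SRP9, a small SRP subunit (adjusted p = 0.00385, limma). For 23 of the 42 genes all 3 pancreas arrays lay above all 36 arrays of the other organs, a pattern found in 3.58% of all probesets. This held for 10 of 13 targeting and translocon genes, 4 of 5 signal peptidase genes, 3 of 10 chaperones and cochaperones, 2 of 6 disulfide isomerases, 2 of 4 OST subunits and 2 of 4 unfolded protein response and trimming genes. Without those same sets of arrays it held for 24 and 23 genes, and the share of all probesets was not computed for these sets.

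The comparison of pancreas with liver set the exocrine gland against another organ that secretes large amounts of protein. In pancreas 22 of the 42 genes were called higher and 0 lower at a false discovery rate of 0.001, where 7.66% of all probesets were called higher and 8.0% lower. The genes were brighter than the array as a whole: 40 of the 42 had a mean of at least 5, but only 13182 of the 42860 probesets did. Shares called among bright probesets were not computed, here or for the other comparisons. The median difference was 1.18 over the 42 genes and 0.09 over all probesets. Genes of entry and cutting made up most of the calls: 9 of 13 targeting and translocon genes and 4 of 5 signal peptidase genes were higher, as were 4 of 10 chaperones and cochaperones, 2 of 6 disulfide isomerases, 1 of 4 OST subunits and 2 of 4 genes of the unfolded protein response and trimming group. Without the arrays with acinar markers the count was 24, and without those with hepatocyte markers it was 18. A fit of the pancreas and liver arrays alone called 12 genes.

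These differences are relative to the rest of each array. The median of 13 measured housekeeping genes (of 15 listed) was 7.59 ± 0.41 (SD, n = 3) in pancreas and 9.08 ± 0.30 (n = 4) in liver. When arrays were shifted to an equal housekeeping median, 75.5% of all probesets were called higher in pancreas than in liver, 96.4% of all calls were higher in place of 48.9%, and 41 of the 42 genes were called higher. The median difference of all probesets was then 1.58 and that of the 42 genes 2.66, and the genes lay 1.08 above all probesets. A shift of whole arrays cannot change that last difference, so it says nothing about stability. Shifting arrays to an equal median of all probesets left 18 genes called higher and made 34.6% of all calls higher.

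**Figure D3:**
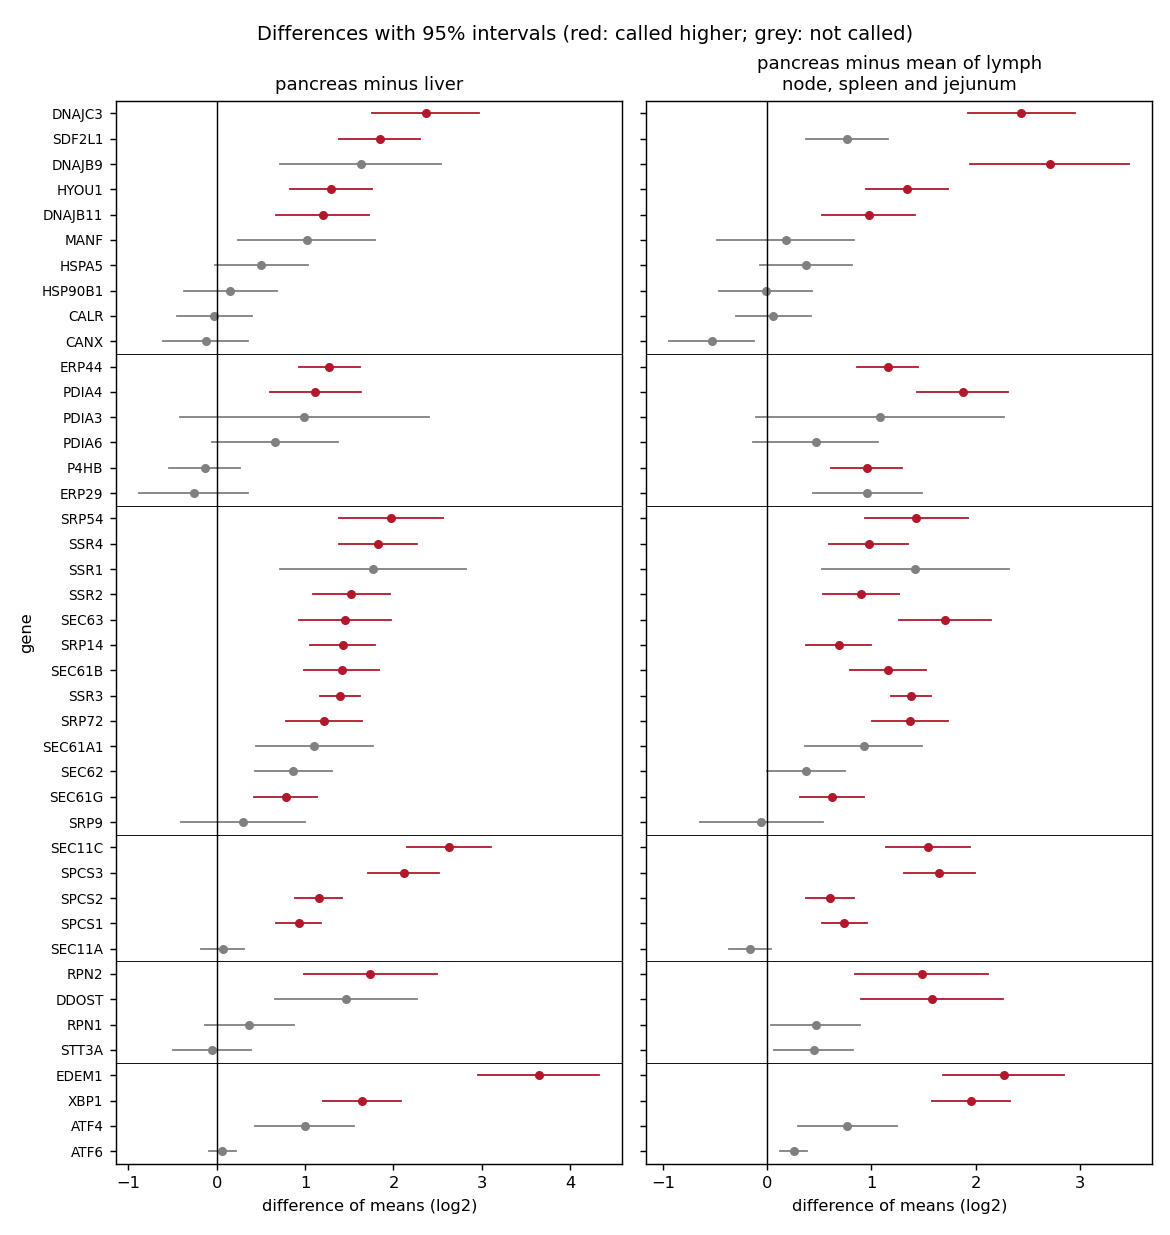
Difference of means (log2) with its 95% interval for each of the 42 genes, pancreas minus liver on the left and pancreas minus the mean of lymph node, spleen and jejunum on the right; red marks genes called higher in pancreas at a false discovery rate of 0.001, grey those not called, and lines separate the roles. Nearly all signal peptidase and translocon genes lie to the right of 0, whereas HSP90B1, CALR and CANX lie near or left of it.

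Among the genes of targeting and the translocon, SRP54 had the largest difference. SRP54, the SRP subunit that binds the signal peptide, was 9.46, 10.02 and 8.98 in pancreas and 7.39, 7.73, 7.81 and 7.11 in liver. The groups did not overlap, and pancreas was 3.94-fold higher (log2 difference 1.98 ± 0.29 SE, adjusted p = 1.85e-06, limma). SSR4, the delta subunit of the translocon-associated complex, was 11.69, 12.15 and 12.28 in pancreas against 10.01, 10.35, 9.88 and 10.60 in liver, a 3.55-fold difference (adjusted p = 4.4e-08). SSR3, the gamma subunit, varied little within organs: it was 11.82 to 11.99 in pancreas and 10.41 to 10.55 in liver (difference 1.40 ± 0.11 SE). SEC61B, the beta subunit of the channel, was 2.67-fold higher in pancreas, while SEC61A1, which forms the pore, differed by 1.10 and was not called (95% interval 0.44 to 1.77, adjusted p = 0.00812). SRP9 was the lowest of this role, at 6.50, 6.87 and 5.30 in pancreas and 5.89, 6.56, 6.20 and 5.05 in liver. Its groups overlapped, and the interval of the difference ran from -0.41 to 1.0.

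The signal peptidase complex contains a catalytic subunit in either of 2 forms, SEC11A or SEC11C. SEC11C was 11.75, 12.14 and 11.91 in pancreas and 9.45, 9.45, 9.55 and 8.75 in liver. All pancreas arrays were above all liver arrays, with a 6.19-fold difference (2.63 ± 0.23 SE on the log2 scale, adjusted p = 8.59e-11, limma). SEC11A was 8.99, 9.14 and 9.34 in pancreas and 9.24, 8.96, 9.08 and 9.07 in liver, and its groups overlapped (difference 0.07, 95% interval -0.17 to 0.31). The difference between the differences of these genes was not tested. The accessory subunit SPCS3 was 11.29, 11.73 and 11.13 in pancreas against 9.11, 9.40, 9.36 and 9.19 in liver, 4.34-fold higher. SPCS1 and SPCS2 were also called, with smaller differences of 0.93 and 1.15.

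Of the 4 OST subunits only RPN2, ribophorin II, was called higher in pancreas than in liver. RPN2 was 11.01, 11.32 and 11.09 in pancreas and 9.54, 9.78, 8.83 and 9.47 in liver, without overlap (3.34-fold, adjusted p = 0.000377). DDOST, the OST48 subunit, was 10.83, 11.03 and 10.97 in pancreas against 9.41, 9.52, 8.99 and 10.01 in liver. Its groups did not overlap either, but the difference of 1.46 ± 0.39 SE missed the threshold (adjusted p = 0.00409). STT3A, a catalytic subunit, was 9.14, 9.17 and 9.25 in pancreas and 9.37, 9.16, 9.30 and 9.13 in liver, which is the organ of its highest mean. The groups overlapped and the interval of the difference was -0.50 to 0.39. RPN1, ribophorin I, differed by 0.37 and was not called.

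Of the 10 measured chaperones and cochaperones, DNAJC3, SDF2L1, HYOU1 and DNAJB11 were called higher in pancreas than in liver. DNAJC3, a J-domain cochaperone of BiP also known as P58IPK, was 9.62, 9.70 and 10.42 in pancreas and 7.41, 7.75, 7.56 and 7.48 in liver, 5.16-fold higher (adjusted p = 1.25e-07, limma). SDF2L1, which acts with BiP and ERdj3, was 9.61, 9.70 and 9.65 in pancreas and 7.71, 7.59, 7.84 and 8.11 in liver, 3.58-fold higher. Neither gene's groups overlapped. DNAJB11, the cochaperone ERdj3, and HYOU1, an exchange factor for BiP, were called with differences of 1.20 and 1.30. HYOU1 was however dim, at 5.64, 4.41 and 5.42 in pancreas and 3.62 to 4.11 in liver, and a second probeset of the gene gave -0.11. DNAJB9, the BiP cochaperone ERdj4, differed by 1.63 (adjusted p = 0.00446, limma) and MANF, a secreted ER stress protein, by 1.02 (adjusted p = 0.0365), and neither was called.

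HSPA5 was 11.96, 12.00 and 11.48 in pancreas and 10.83, 11.55, 11.52 and 11.35 in liver. The lowest pancreas array lay below 2 of the liver arrays, and the difference of 0.50 had an interval of -0.02 to 1.03 (adjusted p = 0.13, limma). HSP90B1 differed by 0.15 (interval -0.37 to 0.68), CALR by -0.03 (-0.46 to 0.40) and CANX by -0.13 (-0.61 to 0.35). CANX was 9.54, 9.16 and 9.16 in pancreas and 9.64, 9.34, 9.57 and 9.11 in liver, and its highest mean was in kidney. Its other 3 probesets gave 0.34, 1.26 and 0.95 for the same comparison, none of them called, so its direction was uncertain. With an equal housekeeping median the differences of CALR and CANX became 1.46 and 1.36.

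In the disulfide isomerase family ERP44 and PDIA4 were called. ERP44, which retains unassembled client proteins in the early secretory pathway, was 10.16, 10.35 and 10.25 in pancreas and 9.24, 9.02, 9.03 and 8.63 in liver, 2.42-fold higher (adjusted p = 4.03e-07, limma). PDIA4, the isomerase ERp72, was 10.52, 11.00 and 11.30 in pancreas and 9.37, 9.66, 9.95 and 10.31 in liver, 2.17-fold higher. In both genes all pancreas arrays were above all liver arrays, PDIA4 by a narrow margin.

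ERP29 and P4HB did not follow that order. ERP29, an isomerase-like protein without the usual active site, was 9.86, 10.44 and 9.80 in pancreas and 10.44, 10.37, 10.09 and 10.27 in liver (difference -0.26, interval -0.88 to 0.36). Its 4 kidney arrays, at 10.73 to 11.21, were above all other arrays. P4HB, the classical isomerase PDI and a subunit of collagen prolyl hydroxylase, was 11.85 to 12.15 in pancreas and 12.07 to 12.23 in liver, whereas the 4 jejunum arrays were above both, at 12.38 to 12.78. P4HB was 9.77 to 10.73 in lymph node and 9.85 to 10.50 in spleen. The plasma-cell-bearing organs thus did not share a level of this gene. Under the equal housekeeping median the pancreas minus liver differences of ERP29 and P4HB turned to 1.22 and 1.35.

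**Figure D4:**
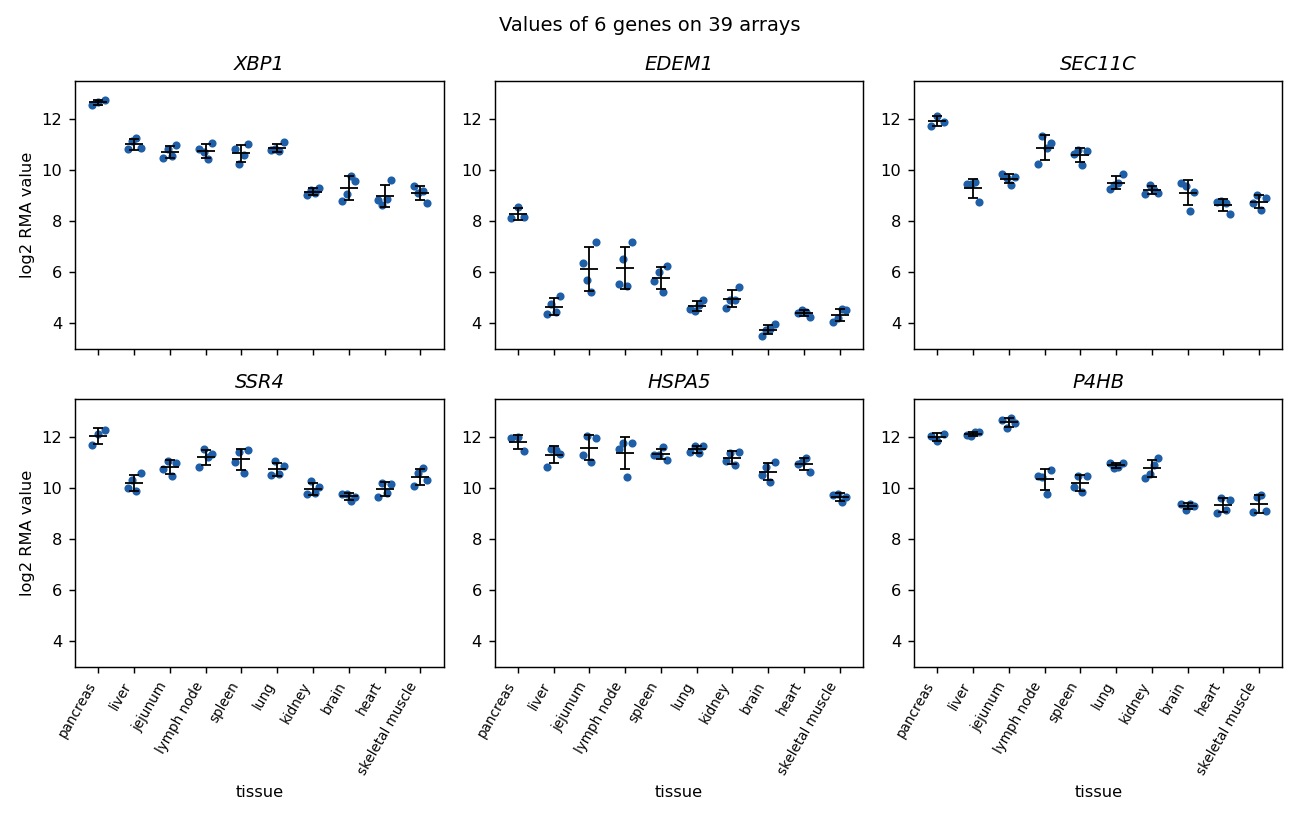
Log2 RMA values of XBP1, EDEM1, SEC11C, SSR4, HSPA5 and P4HB on the 39 arrays (points) by organ, with the mean and SD of each organ. XBP1, EDEM1, SEC11C and SSR4 are highest on the pancreas arrays, HSPA5 overlaps between pancreas and other organs, and P4HB is highest in jejunum.

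EDEM1, an ER lectin that directs misfolded glycoproteins to degradation, had the largest pancreas minus liver difference of the 42 genes. It was 8.15, 8.56 and 8.19 in pancreas and 4.35, 4.74, 4.45 and 5.08 in liver, a log2 difference of 3.64 ± 0.34 SE (adjusted p = 2.17e-10, limma). The liver values were close to the median probeset, where the array hardly resolves levels, so no fold is given. XBP1 was 12.56, 12.68 and 12.76 in pancreas and 10.83, 11.14, 11.25 and 10.86 in liver, 3.14-fold higher without overlap (adjusted p = 2.91e-07). The probesets measured total XBP1 signal and not its spliced form.

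The other 2 factors of the response gave no call. ATF4 was 11.26, 11.17 and 11.00 in pancreas and 9.48, 11.01, 10.25 and 9.86 in liver, and the second liver array lay within the pancreas range. Its difference was 1.0 ± 0.28 SE (adjusted p = 0.00484), and its highest mean, 11.29 ± 0.60 (SD, n = 4), was in skeletal muscle. ATF6 was 3.79, 3.66 and 4.07 in pancreas and 3.76, 3.72, 3.80 and 3.82 in liver. It was at the level of the median probeset in every organ, with a highest value outside pancreas of 3.82, so its level was not measured well enough to compare.

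The second comparison set pancreas against the mean of the 3 plasma-cell-bearing organs and used the same pancreas arrays. Here 24 of the 42 genes were called higher in pancreas and 0 lower, beside 12.5% of all probesets called higher and 11.5% lower. The median difference was 0.96 over the genes and 0.05 over all probesets. Again 9 of 13 targeting and translocon genes and 4 of 5 signal peptidase genes were called, with 4 of 10 chaperones and cochaperones, 3 of 6 disulfide isomerases, 2 of 4 OST subunits and 2 of 4 of the response and trimming group. The count was 26 without the arrays with acinar markers and 21 without those with hepatocyte markers. Leaving out pancreas 3 gave the lowest count, 17, and taking lymph node alone as the reference gave 14. With an equal housekeeping median 42 genes were called, together with 82.6% of all probesets, and 98.8% of all calls were higher in place of 52.1%. The 42 genes lay 0.91 above the median of all probesets, a difference that a shift of whole arrays leaves as it is. With an equal median of all probesets, 21 genes were called and 39.2% of all calls were higher.

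DNAJB9 had the largest difference in this comparison. It was 9.95, 10.59 and 10.12 in pancreas and had a lowest value of 6.71, a median of 7.53 and a highest value of 8.23 over the 12 arrays of lymph node, spleen and jejunum, a 6.54-fold difference (adjusted p = 6.14e-07, limma). DNAJC3 had a lowest value of 5.99, a median of 7.46 and a highest of 8.61 over these 12 arrays and was 5.41-fold higher in pancreas. EDEM1 was 5.23, 5.86 and 7.21 by the same 3 measures and 4.82-fold higher in pancreas. In these genes no array of the 3 organs reached the lowest pancreas array.

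XBP1 was 10.25, 10.76 and 11.06 by lowest, median and highest value over the 12 arrays, and pancreas was 3.88-fold higher (adjusted p = 3.1e-10, limma). SEC11C was 9.41, 10.45 and 11.36, and pancreas was 2.92-fold higher. Its levels were ordered among the 3 organs, with lymph node at 10.24 to 11.36, spleen at 10.20 to 10.78 and jejunum at 9.41 to 9.85. All 4 jejunum arrays were below all arrays of lymph node and spleen. SDF2L1, called against liver, was not called here (difference 0.76, interval 0.37 to 1.15, adjusted p = 0.00151): lymph node reached 9.78 and 9.86 on 2 arrays, above the pancreas arrays.

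P4HB was called higher in pancreas than in the mean of the 3 organs, 1.94-fold, but against jejunum alone the difference was -0.58. HSP90B1 differed by -0.01 (interval -0.46 to 0.43) and CANX by -0.53 (interval -0.94 to -0.13, adjusted p = 0.027), and neither was called. The other 3 probesets of CANX went the opposite way, by 0.24, 1.58 and 1.19, and the latter 2 were called higher in pancreas (adjusted p = 0.000304 and 7.84e-05, limma), so the direction of CANX was uncertain here too. SEC11A differed by -0.16 and SRP9 by -0.06, likewise without a call. With an equal housekeeping median these 4 differences, of HSP90B1, CANX, SEC11A and SRP9, became 1.83, 1.31, 1.68 and 1.79.

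Between liver and the plasma-cell-bearing organs 8 of the 42 genes (19.0%) were called. In liver 2 (4.76%) were called higher, a share below the 6.84% of all probesets, and 6 were called lower, where 8.0% of all probesets were. These counts are small and are not read as a direction of the 42 genes. The genes higher in liver were P4HB (2.13-fold) and ERP29 (2.33-fold, difference 1.22 ± 0.23 SE). The genes lower in liver were EDEM1, SEC11C, SDF2L1, SSR4, SRP14, the Alu-domain partner of SRP9, and the signal peptidase subunit SPCS2. EDEM1 fell by 1.37, SEC11C by 1.09, SDF2L1 by 1.08, SSR4 by 0.86, SRP14 by 0.74 and SPCS2 by 0.55 on the log2 scale relative to the other organs. The median difference was -0.18 over the 42 genes and -0.03 over all probesets.

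The calls depended on the scaling and on the reference organ. With an equal housekeeping median 4 genes were called higher in liver and 0 lower, and the median of all probesets itself moved to 0.33, with 71.5% of all calls higher in place of 46.1%. Relative to all probesets the 42 genes lay at -0.16, which no shift of whole arrays can alter. Against jejunum alone 2 genes were called and P4HB turned to -0.45, and against spleen alone 5 were called. The count was 10 (3 higher, 7 lower) without the arrays with acinar markers and 8 without those with hepatocyte markers.

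Against brain, heart, kidney, lung and skeletal muscle, 16 of the 42 genes were called higher in liver and 0 lower, beside 6.95% of all probesets higher and 8.49% lower. The 16 include ATF6, whose difference of 0.25 lay at the level of the median probeset. Among them were 5 of 6 disulfide isomerases, 5 of 13 targeting and translocon genes and 2 of 10 chaperones and cochaperones. P4HB was 4.61-fold higher in liver than in the mean of these organs (adjusted p = 2.05e-14, limma), DNAJC3 3.94-fold, PDIA4 3.04-fold and XBP1 2.90-fold. PDIA3, the glycoprotein isomerase ERp57, had a difference of 2.12 but varied within organs and was not called (adjusted p = 0.00105). Leaving out liver 1 gave 11 calls, and 17 and 14 genes were called without the arrays with acinar and with hepatocyte markers. With an equal housekeeping median 65.9% of all calls were higher in place of 45%.

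In lymph node, spleen and jejunum 31 of the 42 genes were called higher than in those 5 organs and 0 lower, where 11.5% of all probesets were called higher and 11.9% lower. The median difference was 0.67 over the genes and -0.00 over all probesets. Calls came from every role: 8 of 10 chaperones and cochaperones, 5 of 6 disulfide isomerases, 9 of 13 targeting and translocon genes, 4 of 5 signal peptidase genes, 3 of 4 OST subunits and 2 of 4 of the response and trimming group. SDF2L1 was 4.67-fold higher (adjusted p = 2.97e-17, limma), PDIA3 4.09-fold, SEC61A1 3.07-fold and SEC61B 2.92-fold. HSPA5, HSP90B1, CALR and CANX, which gave no call between pancreas and liver, were all called here, by 0.64, 0.91, 0.49 and 0.67. The 2 comparisons differ in precision: HSPA5 was 0.64 ± 0.12 SE here and 0.50 ± 0.26 SE for pancreas minus liver, from fewer arrays. Whether the differences themselves differ was not tested. The count was 27 without the arrays with acinar markers and 26 without those with hepatocyte markers.

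A few genes were highest outside the secretory organs. SEC62, a partner of the Sec61 channel, was 10.73 to 11.23 on the brain arrays and 9.97 to 10.13 on the pancreas arrays, and every brain array was above every other array. SRP9 had its highest mean in brain (7.21 ± 0.09 SD, n = 4), followed by skeletal muscle (6.83 ± 0.43), with overlapping values. ATF4 had its highest mean in skeletal muscle, with pancreas 0.14 lower and within its spread. Skeletal muscle 3 and 4, which carried acinar markers, were 11.86 and 11.74. Skeletal muscle 1, which carried them too, was 10.65, and skeletal muscle 2 was 10.90. The part of these markers in the rank was not tested.

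Of 115 other genes of ER entry, folding, N-glycan assembly, degradation, stress signalling and export, 107 had a probeset. In pancreas 20 of them (18.7%) were called higher than in liver and 8 (7.48%) lower, beside 7.66% and 8.0% of all probesets, so the share of lower genes was close to that of the array as a whole. Against the plasma-cell-bearing organs 33 (30.8%) were higher and 7 (6.54%) lower, beside 12.5% and 11.5% of all probesets. The degradation list had 6 of 15 higher and 0 lower than in liver, the N-glycan list 4 of 19 higher and 1 lower, the translocation list 2 of 10 higher and 0 lower, and the folding list 4 of 18 higher and 4 lower. Of the stress signalling list 1 of 16 was higher and 1 lower (6.25% each), and of the export and retrieval list 3 of 29 were higher (10.3%) and 2 lower (6.90%), shares close to those of all probesets.

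AGR2, a disulfide isomerase of mucus-secreting epithelia, was 9.44 ± 0.33 (SD, n = 3) in pancreas, 4.14 ± 0.23 (n = 4) in liver and 9.57 ± 1.53 in jejunum, so its mean in jejunum was above both. Its liver level was that of the median probeset, as was that of DERL3 and EDEM3, so no fold is given for them. DERL3, a component of ER-associated degradation, was 9.15 ± 0.29 in pancreas, 4.05 ± 0.16 in liver and 5.28 ± 0.40 in lymph node. ERO1B, an ER oxidase that recharges the isomerases, was 7.17 ± 0.98 in pancreas and between 3.46 and 3.87 by mean in the other organs. EDEM3, a relative of EDEM1, was 5.96 ± 1.63 in pancreas and 3.84 ± 1.01 in liver. These 4 genes were called higher in pancreas than in liver. The calls use a spread estimated over all organs together. For EDEM3 the SDs in pancreas and liver are large beside its difference of 2.12, so its call does not rest on the spread of these organs alone.

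Other pathway genes were lower in pancreas, relative to the rest of each array. An equal housekeeping median shifted the pancreas arrays by 1.62 and the liver arrays by 0.13 on average, which would make these differences smaller. Calls of these genes were not taken under that scaling. SEC23A, a COPII coat subunit, was 5.18 ± 0.81 in pancreas and 9.17 ± 0.31 in liver, 15.9-fold lower (adjusted p = 7.31e-11, limma), and its highest mean, 10.18 ± 0.31, was in jejunum. TXNDC12, a thioredoxin-like ER protein, was 7.94 ± 0.19 in pancreas and 10.42 ± 0.28 in liver. PDIA5 was 7.98 ± 0.16 in pancreas, 10.06 ± 0.13 in liver and 10.02 ± 0.22 in spleen. CREB3L3, a liver and gut transcription factor, was 5.19 ± 0.61 in pancreas, 7.39 ± 1.18 in liver and 9.39 ± 0.30 in jejunum.

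In the other comparisons QSOX1, MCFD2, ALG3 and TXNDC12 were the pathway genes with the largest called differences between liver and the plasma-cell-bearing organs, all higher in liver, by 1.95, 1.82, 1.66 and 1.65. PDIA5, CREB3L3, FKBP11 and LMAN1 led those of liver over brain, heart, kidney, lung and skeletal muscle, by 2.96, 2.75, 2.47 and 2.41. LMAN1, the cargo receptor ERGIC-53, also led the plasma-cell-bearing organs over those 5 organs, by 2.17, followed by PDIA5 with 1.76, SEC24D with 1.70 and CREB3L3 with 1.59. The CREB3L3 value is a mean over 3 organs that include jejunum, where its level was above that of liver. It is not read as shared by lymph node and spleen.

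Probesets of the same gene did not always have the same sign. Of the 31 members with several probesets, 25 had the same sign in all of them for pancreas against liver, 25 for pancreas against the plasma-cell-bearing organs, and 18 for liver against the latter. Over all 91 probesets of the members, 33 were called higher and 0 lower in pancreas than in liver, beside 7.66% and 8.0% of all probesets. Against the plasma-cell-bearing organs 41 were called higher and 0 lower, beside 12.5% and 11.5%. The 2 probesets of XBP1 gave differences from liver of 1.65 and 1.67, and the 2 of HSPA5 gave 0.50 and 0.62.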

How the data were processed

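RNA of 39 organ samples was hybridised to Affymetrix Canine Version 2.0 arrays. The authors deposited log2 values made in Partek (RMA background with adjustment for probe sequence, quantile normalization over arrays, median polish), so values of an array are relative to its other values; depth has no meaning here, and precision rests on the number of arrays. An array of pancreas was left out by the authors, as an outlier that lacked expression of pancreatic genes such as insulin and carboxypeptidase B1. Groups were taken from the labels. No probeset was filtered.

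A mean per organ was fitted to all 42860 probesets with limma 3.58.1 (R 4.3.3; lmFit, eBayes), and an F test and 5 contrasts were taken. P-values are two-sided and adjusted by Benjamini-Hochberg over all probesets, and a gene is called at a false discovery rate of 0.001. Reference organs were averaged with equal weight. The fit was tested on simulated data. Probe annotation gave 29254 probesets a sole symbol, 439 several and 13167 none. Genes printed array by array were, per role, the 2 highest and the 1 lowest by pancreas minus liver difference, and XBP1, ATF4, ATF6 and HSPA5. Values of HYOU1, SSR3, DNAJB9, P4HB and SEC62 were added after they were seen. Of the pathway lists, the 8 called genes with the largest difference from liver and the 4 largest in each other comparison were named. The members and lists were chosen with earlier results of these data known. Alternatives were the replicate number as a block, other variance estimates, scalings, probeset rules, thresholds and reference organs, a filter on dim probesets, and leaving out arrays; leaving out the arrays with acinar or hepatocyte markers was chosen after seeing the data. The labels gave no scan date, so scan batches were not analysed here.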

Additional observations from a re-analysis of the deposited data

Results flagged for a closer look

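Of 89 groups of 4 arrays of the genes printed array by array and of the mean of the members, 9 were flagged. In these, the gap of an array to the nearest other, divided by the range of the 4, was above Dixon's 95% critical value. A flagged gap can therefore be small in log2 units. Chance flags about 1 in 20 groups. The mean of the members on spleen 3 was -0.03, and the other spleen arrays were 0.28 to 0.35. RPN2 on the same array was 8.38, against 9.90 to 10.17 on the others. SEC11C was 8.75 on liver 4, against 9.45 to 9.55. ERP29 was 9.51 on spleen 2, against 8.37 to 8.41. On jejunum 2, ERP44 was 9.77, against 9.14 to 9.20, and SRP9 was 7.18, against 6.28 to 6.41. CANX was 10.19 on jejunum 4, against 9.79 to 9.85, and 9.40 on lymph node 3, against 9.67 to 9.72. ATF6 was 3.48 on jejunum 3, against 3.56 to 3.57, all near or below the level of the median probeset.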

How the results depend on the processing

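Shifting arrays to an equal housekeeping median raised the calls from 22 to 41 for pancreas against liver and from 24 to 42 against the plasma-cell-bearing organs, lowered those for liver against these organs from 8 to 4, and moved the genes with every pancreas array above all others from 23 to 38. The shift raised the pancreas arrays by 1.62 on average. The share of all probesets with that last pattern was not computed under any alternative, so 3.58% is no measure for the 38. The same shift reversed pancreas minus liver for CALR (1.46), CANX (1.36), ERP29 (1.22), P4HB (1.35) and STT3A (1.43), and pancreas minus the plasma-cell-bearing organs for CANX (1.31), HSP90B1 (1.83), SEC11A (1.68) and SRP9 (1.79). None of these had been called. Fitting the compared organs alone gave 12 calls for pancreas against liver, from fewer arrays. With lymph node alone as the reference, 14 genes were called for pancreas. For liver, spleen alone gave 5 and jejunum alone 2, and P4HB turned to -0.45 against jejunum for liver and -0.58 for pancreas; the cause was not tested. A false discovery rate of 0.05 gave 16 calls for liver against the plasma-cell-bearing organs (6 higher, 10 lower) and 28 for liver against the remaining organs (26 higher, 2 lower). Pancreas against the plasma-cell-bearing organs then had 31 genes higher and 1 lower. The shares of all probesets were not computed at this threshold. Leaving out 1 array at a time gave 40 to 42 for the F test, 18 to 22 for pancreas against liver, 17 to 25 for pancreas against the plasma-cell-bearing organs, 7 to 9 for liver against them, 11 to 18 for liver against the remaining organs, 30 to 33 for the plasma-cell-bearing organs against those, and 23 to 25 for the genes above all other arrays. The other alternatives kept these counts within 1.5 times.

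With the replicate number as a block, the calls were 25, 26, 8, 18 and 32 for the 5 contrasts in the order of the report, and 41 for the F test. The labels do not say that a number marks a dog. Arrays of different organs with the same number had a mean correlation of deviations of 0.13 (-0.29 to 0.46 over 171 pairs, 101 above 0.1). For other numbers the mean was -0.04. Deviations from an organ mean cancel within the organ, so the second value follows largely from the first and is no separate baseline. By average correlation, 30 of the 39 arrays correlated best with their own number, a hint from the data and not from the design.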
